A study of Mus musculus with 6 samples.

Results

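Type I interferon-induced genes were examined in LSK cells, the bone marrow fraction negative for lineage markers and positive for Sca-1 and c-Kit that holds hematopoietic stem cells and multipotent progenitors. A set of 40 mouse genes known to be induced by type I interferon was listed by name, and 35 of them had an annotated probe on the arrays. *Oas1a*, *Ifit1*, *Mx1*, *Ifi44* and *Xaf1* had none and were not analysed here. The wild-type mice were *Spi1*+/+ *MxCre*+ and the PU.1-deficient mice *Spi1*fl/fl *MxCre*+, both on C57BL/6 and 6 to 12 weeks old. Both genotypes carried the Cre transgene, and both were given 2 polyIC injections of 5 µg per g, with an interval of 3 days. The cells were taken on day 14 after the first of these. Each genotype gave 3 pools of LSK cells, with many mice in a pool, and each pool was measured on 1 array. *MxCre* is driven by the promoter of *Mx1*, itself an interferon-induced gene that is active in many cell types, so the deletion of *Spi1* is not restricted to LSK cells. All 6 pools came from polyIC-treated mice, and levels without polyIC were not analysed here.

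Type I interferons are cytokines made when a cell senses foreign nucleic acid, and polyIC, a synthetic double-stranded RNA, triggers them through the same sensors. They bind the receptor pair IFNAR1 and IFNAR2, whose kinases JAK1 and TYK2 activate STAT proteins. A complex that holds STAT2 and IRF9 then binds the interferon-stimulated response element in the promoters of many genes, whose products sense viral RNA, block translation and viral entry, and switch the response off again. In bone marrow, interferon drives dormant stem cells into cycle. Sca-1, one of the surface proteins that defines the LSK gate, is encoded by the interferon-induced gene *Ly6a*, for which the arrays had no annotated probe.

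The arrays held 45281 probes, with a median intensity of 89.5 to 116.5, and between 15639 and 18174 probes per array were detected. The targeted gene *Spi1* was lower in all 3 PU.1-deficient pools, at log2 intensities of 6.62, 5.80 and 6.00 against 8.54, 8.51 and 8.69 in the wild-type pools (log2 fold change -2.44, adjusted p = 0.00112). *Kit*, the gate marker with a probe, was bright in every pool, from 11.88 to 12.27 in PU.1-deficient and from 12.44 to 12.67 in wild-type pools. The groups did not overlap, and *Kit* missed the threshold (log2 fold change -0.44, adjusted p = 0.221). *Xist*, which coats the inactive X, was at 9.93 to 11.06 in PU.1-deficient pools and 4.48 to 5.18 in wild-type pools. The Y-linked *Kdm5d* had a log2 fold change of -0.89 (adjusted p = 0.0477). The Y-linked *Eif2s3y* (-0.67, adjusted p = 0.106) and *Uty* (-0.28, adjusted p = 0.503) missed the threshold. These Y-linked genes were detected in every pool, those of PU.1-deficient mice included. The mix of sexes in the pools and their genotype cannot be told apart. The labels do not say whether mice were bred or sorted on separate days, and p-values measure only the spread between these pools.

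Of the 35 interferon-induced genes, 0 rose and 5 fell with the loss of PU.1 at an adjusted p under 0.05 (*limma*, adjusted over all 22119 probes tested). The 5 made up 14.3% of the measured genes, beside 5.59% of all 10528 genes with the same test and 1 probe each. For rises, the share over all genes was 6.61%. At an unadjusted p under 0.05, 12 interferon-induced genes (34.3%) were lower, beside 14.7% of all genes, and 1 (2.86%), *Eif2ak2*, was higher, beside 12.4%. The median log2 fold change of the 35 genes was -0.27, against -0.04 over all genes, and 23 of the 35 were negative, which is 65.7% beside 54.2% of all genes. In 10 of the 35 (28.6%) all 3 PU.1-deficient pools lay below all 3 wild-type pools, as they did in 18.3% of all genes. In 2 of the 35 (5.71%) they lay above, against 16.2% of all genes. In bulk samples, fewer cells of a type and less RNA per cell cannot be told apart. Of the 35 probes, 28 were detected on all 6 arrays and 7 on some of them.

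*Ifi27l2a* encodes a small membrane protein of the IFI27 family, which is among the most inducible of interferon targets. Its log2 intensities were 5.05, 6.11 and 5.97 in PU.1-deficient pools 1 to 3 and 7.57, 7.87 and 9.35 in wild-type pools 1 to 3. Wild-type pool 3 stood highest, and no PU.1-deficient pool came within 1 log2 unit of the lowest wild-type pool. It fell by 2.55 on the log2 scale (standard error 0.49, adjusted p = 0.0186), the largest fall among the 35 genes, to 17.0% of the wild-type level. Only 2 of the 3 PU.1-deficient pools gave a signal above background.

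*Oas2* encodes an oligoadenylate synthetase, which on binding double-stranded RNA makes the second messenger that activates RNase L. It read 4.38, 4.88 and 4.86 in PU.1-deficient pools and 5.73, 6.95 and 8.01 in wild-type pools. The wild-type pools were themselves widely spread (SD 1.14), yet all lay above the PU.1-deficient ones. In no PU.1-deficient pool was the probe detected, so only a bound can be given, and *Oas2* was at least 3.45-fold lower (measured log2 fold change -2.20, standard error 0.52, adjusted p = 0.0414). Both the call and this bound hold for the background correction used, since *Oas2* missed the threshold with no background correction (log2 fold change -1.03, adjusted p = 0.09) and with an offset of 50 (-1.40, adjusted p = 0.0768).

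*Rsad2* encodes viperin, an enzyme that makes a nucleotide analogue which stops viral RNA synthesis. It was at 5.70, 6.31 and 6.25 in PU.1-deficient pools and 7.01, 7.88 and 8.17 in wild-type pools. The groups did not overlap, and the highest PU.1-deficient pool was below the lowest wild-type pool by more than either SD. The log2 fold change was -1.60 (standard error 0.33, adjusted p = 0.0242), a 3.03-fold lower level.

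*Gbp3* encodes a guanylate-binding GTPase that acts against intracellular pathogens. Its log2 intensities of 8.46, 8.20 and 8.50 in PU.1-deficient pools and 9.75, 9.35 and 9.67 in wild-type pools were tight within each genotype (SD 0.17 and 0.21). The log2 fold change was -1.20 (standard error 0.19, adjusted p = 0.00809), the smallest adjusted p of the 35. A second probe of *Gbp3* also passed, with a log2 fold change of -1.11 (adjusted p = 0.0445).

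*Adar* encodes ADAR1, which converts adenosine to inosine in double-stranded RNA and keeps the cell's own RNA from being sensed. Its brightest probe read 7.89, 8.02 and 8.06 in PU.1-deficient pools and 8.61, 8.85 and 8.82 in wild-type pools, which put *Adar* at -0.77 on the log2 scale (standard error 0.17, adjusted p = 0.0287). The other 3 probes of *Adar* did not pass, at -0.34, 0.13 and 0.19, so the fall was seen with 1 of 4 probes.

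**Figure D1:**
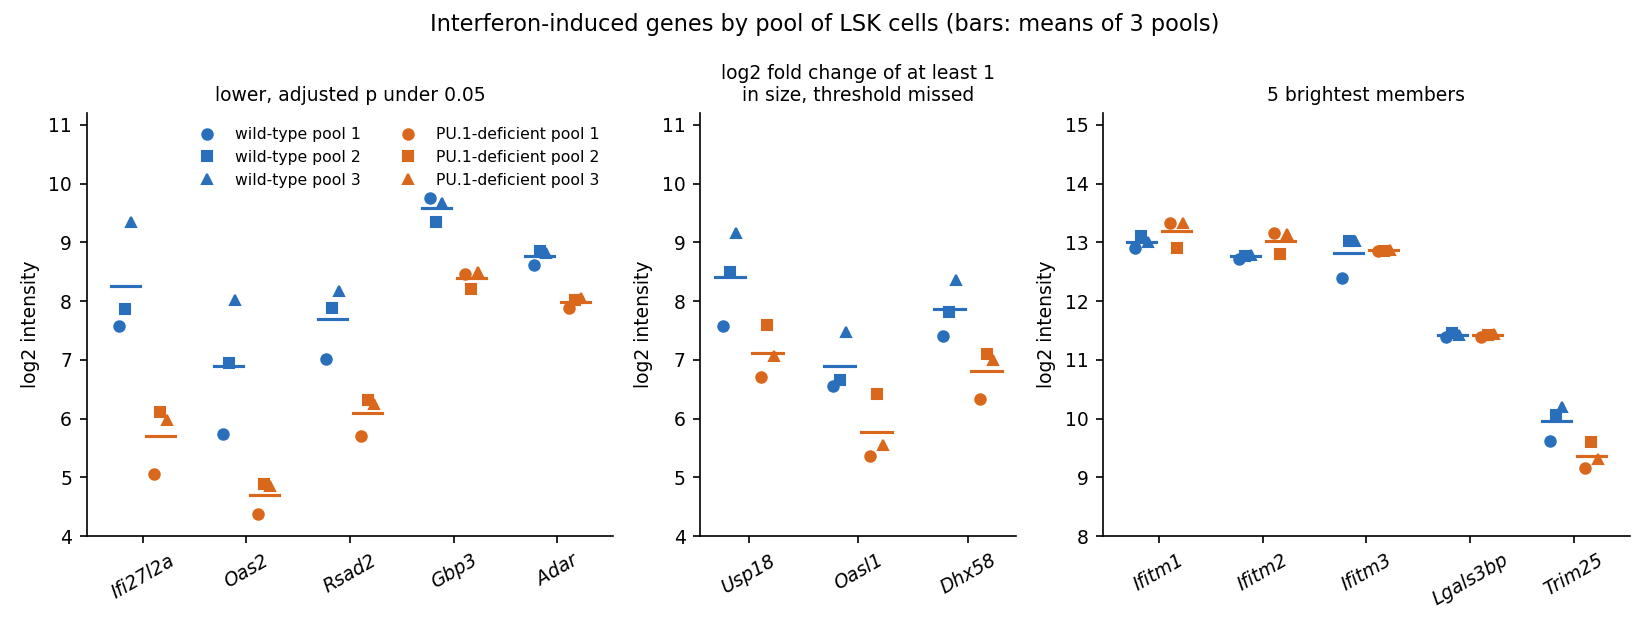
Log2 intensity of the interferon-induced genes in each of 6 pools of LSK cells; blue symbols are wild-type pools, orange symbols PU.1-deficient pools, the shape gives the pool number and the bars are means of 3 pools (the right panel has its own axis range). The 5 genes on the left do not overlap between the genotypes, *Usp18* in the middle panel overlaps slightly (7.59 against 7.58), and *Lgals3bp* on the right lies between 11.38 and 11.45 in all 6 pools.

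The calls depended on single pools. *Gbp3* passed in 5 of the 6 fits that left out 1 pool and missed the threshold without wild-type pool 3 (adjusted p = 0.0506). *Ifi27l2a* passed in 3 of the 6 and was the only gene of the 35 that passed without wild-type pool 3. *Rsad2* and *Adar* passed in 2 of the 6 and *Oas2* in 1. Without PU.1-deficient pool 1, PU.1-deficient pool 3 or wild-type pool 2, *Gbp3* alone passed. Without wild-type pool 1, 8 genes passed, the 5 together with *Dhx58*, *Oas3* and *Usp18*. In that fit 1096 of all 22119 probes were lower. The fold changes moved less than the calls, over the 6 fits from -2.90 to -2.01 for *Ifi27l2a*, from -2.78 to -1.64 for *Oas2*, from -1.94 to -1.36 for *Rsad2*, from -1.32 to -1.11 for *Gbp3* and from -0.85 to -0.72 for *Adar*. With no filter on dim probes, *Oas2*, *Rsad2* and *Ifi27l2a* missed the threshold (adjusted p = 0.122, 0.0673 and 0.0669). With no background correction, *Ifi27l2a* and *Rsad2* passed with smaller log2 fold changes, -1.54 and -0.95.

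Promoter sequences from RefSeq (GRCm38.p6, from 250 bases before each start to 50 after it) were available for 26 of the 35 genes, 3 of the 5 that fell among them. They were searched on both strands for the core of the interferon-stimulated response element, GAAANNGAAA, which reads TTTCNNTTTC on the other strand. Matches may overlap each other. The core was found in 14 of the 26 genes (53.8%), beside 3.99% of all 27025 genes in the table, or 3.44% of 32851 windows. Of the genes that fell, *Rsad2* and *Gbp3* held it and *Adar* did not in any of its 3 windows. Of the 23 genes that missed the threshold, 12 held it. A match is a description of letters and not a site of binding. The windows of both genes with a match that fell are shown with those of *Isg15* and *Ifitm3*, which hold 3 and 2 matches and missed the threshold, and with 1 of the windows of *Adar*. Each is 5′ to 3′ on the strand of the gene, the matches in capitals.
*Rsad2* chr12:26456403-26456702 (minus strand): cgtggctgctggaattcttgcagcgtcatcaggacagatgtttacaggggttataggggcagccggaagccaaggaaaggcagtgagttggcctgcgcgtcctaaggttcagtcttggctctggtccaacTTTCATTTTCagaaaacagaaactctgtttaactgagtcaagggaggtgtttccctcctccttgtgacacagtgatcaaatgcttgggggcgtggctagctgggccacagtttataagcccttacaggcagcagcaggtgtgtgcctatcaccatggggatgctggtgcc
*Gbp3* chr3:142559794-142560093 (plus strand): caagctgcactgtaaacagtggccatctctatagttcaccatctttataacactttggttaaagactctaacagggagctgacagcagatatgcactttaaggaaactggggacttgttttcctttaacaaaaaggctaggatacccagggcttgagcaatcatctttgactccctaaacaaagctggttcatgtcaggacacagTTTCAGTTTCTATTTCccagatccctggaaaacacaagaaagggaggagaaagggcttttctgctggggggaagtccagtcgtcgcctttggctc
*Isg15* chr4:156200769-156201068 (minus strand): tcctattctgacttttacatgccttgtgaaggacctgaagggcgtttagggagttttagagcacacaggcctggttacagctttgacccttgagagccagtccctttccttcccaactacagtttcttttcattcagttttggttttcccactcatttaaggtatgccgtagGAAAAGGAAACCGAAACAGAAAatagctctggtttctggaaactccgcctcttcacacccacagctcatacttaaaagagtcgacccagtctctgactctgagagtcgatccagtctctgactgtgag
*Ifitm3* chr7:141010695-141010994 (minus strand): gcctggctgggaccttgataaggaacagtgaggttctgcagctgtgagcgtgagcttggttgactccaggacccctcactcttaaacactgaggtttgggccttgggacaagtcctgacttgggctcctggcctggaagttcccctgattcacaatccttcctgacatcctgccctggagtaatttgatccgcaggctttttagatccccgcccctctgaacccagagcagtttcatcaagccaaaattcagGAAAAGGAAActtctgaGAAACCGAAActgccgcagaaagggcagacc
*Adar* chr3:89730468-89730767 (plus strand): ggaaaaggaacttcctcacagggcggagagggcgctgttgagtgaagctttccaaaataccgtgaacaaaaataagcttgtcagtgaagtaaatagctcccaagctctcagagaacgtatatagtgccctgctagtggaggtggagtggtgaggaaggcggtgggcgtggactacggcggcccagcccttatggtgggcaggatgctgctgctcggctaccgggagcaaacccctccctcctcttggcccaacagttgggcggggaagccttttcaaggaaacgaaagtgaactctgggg
With the start base counted as 0, the match of *Rsad2* ran from -120 to -111 and those of *Gbp3* from -45 to -36 and from -39 to -30, where they overlap. The 3 matches of *Isg15* followed each other from -78 to -57, and the matches of *Ifitm3* lay after the start, from 2 to 11 and from 19 to 28.

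**Figure D2:**
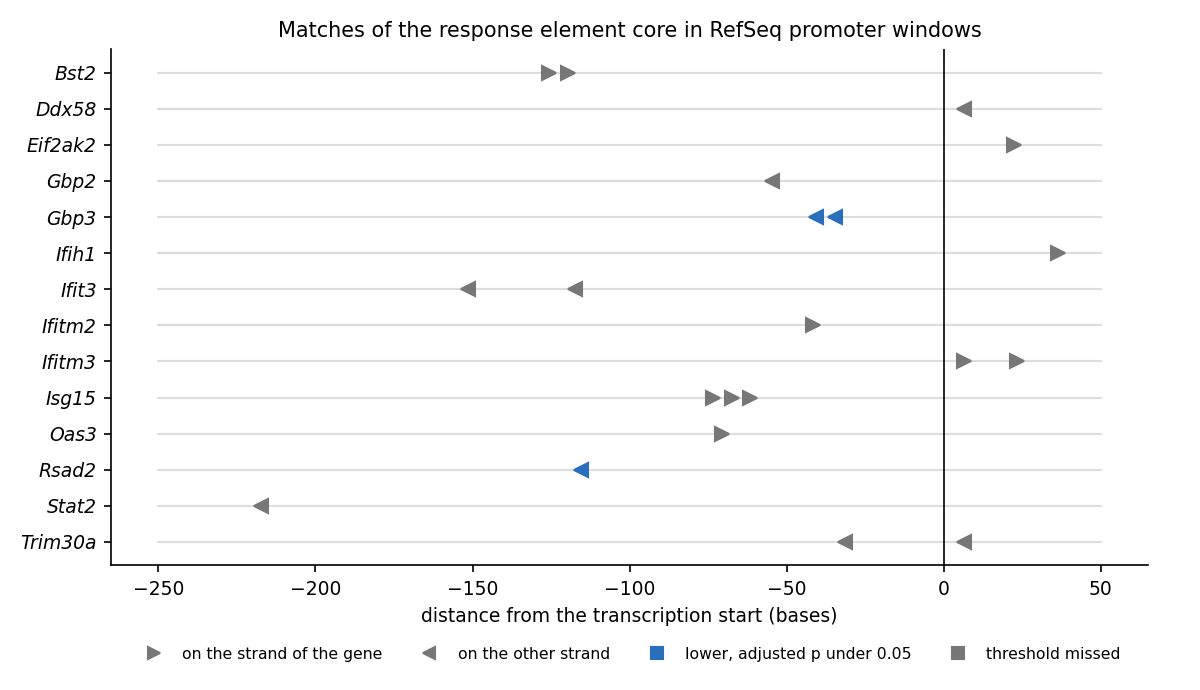
Position of each match of the response element core, in bases from the transcription start, in the promoter windows (grey lines, 250 bases before to 50 after the start) of the 14 genes with a match. Arrowheads give the strand, and *Gbp3* and *Rsad2*, which fell, are blue; the matches of *Gbp3* lie at -45 to -30 and that of *Rsad2* at -120 to -111.

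Another 3 genes had a log2 fold change of at least 1 in size and missed the threshold. *Usp18*, the protease that removes ISG15 from proteins and shuts down signalling at IFNAR2, was at 6.71, 7.59 and 7.07 in PU.1-deficient pools and 7.58, 8.50 and 9.15 in wild-type pools (log2 fold change -1.28, standard error 0.41, adjusted p = 0.114). Its groups overlapped only through PU.1-deficient pool 2 and wild-type pool 1. *Oasl1*, which in mice restrains translation of *Irf7*, was at 5.36, 6.41 and 5.55 against 6.56, 6.66 and 7.48 (-1.13, standard error 0.35, adjusted p = 0.105). *Dhx58*, which encodes LGP2, an RNA sensor without a signalling domain of its own, was at 6.33, 7.10 and 7.0 against 7.40, 7.82 and 8.36 (-1.05, standard error 0.31, adjusted p = 0.0879), and its other 2 probes gave -0.93 and -1.29. The groups of *Oasl1* and *Dhx58* did not overlap with these probes, while those of the second probe of *Oasl1* did (-0.73, adjusted p = 0.344). Without wild-type pool 1, *Usp18* and *Dhx58* passed (adjusted p = 0.0222 and 0.0455), and without PU.1-deficient pool 2, *Oasl1* did (adjusted p = 0.0397).

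By role, none of the 5 genes of RNA and DNA sensing passed, *Dhx58* and *Trim25* included. *Ifih1*, which encodes the long double-stranded RNA sensor MDA5, had a log2 fold change of 0.16, and *Zbp1*, the sensor of Z-form nucleic acid, of 0.27. *Ddx58*, which encodes RIG-I, had -0.01 with the widest interval of all (-1.42 to 1.40), since its pools ranged from 4.63 to 6.84 within the PU.1-deficient group. Among the enzymes of double-stranded RNA, 2 of 6 fell, *Oas2* and *Adar*. *Oas3* was detected in 2 wild-type pools and in no PU.1-deficient pool (log2 fold change -0.61, adjusted p = 0.354) and *Oasl2* had -0.18. *Eif2ak2*, which encodes PKR, the kinase that stops translation on binding double-stranded RNA, was the highest of the 35 at 0.49 (95% interval 0.04 to 0.94, adjusted p = 0.20), with all PU.1-deficient pools above all wild-type pools.

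Neither *Ifit2* (-0.33) nor *Ifit3* (-0.41), whose products bind foreign RNA, passed. *Isg15*, the ubiquitin-like protein that is joined to other proteins during the response, had a log2 fold change of -0.23, with pools from 6.81 to 7.24 in PU.1-deficient and from 6.65 to 7.79 in wild-type LSK cells. Of the genes of nucleotides and nucleases, *Rsad2* fell. *Cmpk2*, the mitochondrial nucleotide kinase known as the neighbour of *Rsad2* in the genome, gave 0.15 (95% interval -0.41 to 0.71), and its groups overlapped. The exonuclease gene *Isg20* gave 0.14. *Samhd1*, which encodes the hydrolase that empties the pool of deoxynucleotides, had -0.64 with its brightest probe. This was the smallest adjusted p among the genes that missed the threshold (0.0799), with no overlap between the groups. The groups overlapped in the dimmer probes of *Samhd1*, which gave -0.49 and 0.05 (adjusted p = 0.461 and 0.953).

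Of the GTPases, *Gbp3* fell, while its paralogue *Gbp2* had 0.02 (95% interval -0.51 to 0.55) and *Mx2* -0.27. The difference between *Gbp3* and *Gbp2* was not tested. Of the 5 genes of membrane restriction none passed. *Bst2*, which encodes tetherin, had -0.29, and *Rtp4*, detected in 1 of 3 PU.1-deficient pools, had -0.54. *Stat2* (0.17) and the ADP-ribosyltransferase genes *Parp9* (-0.17) and *Parp14* (-0.60, adjusted p = 0.176) did not pass either, nor did *Ifi35* (-0.19), *Trim30a* (-0.45) and the peptide transporter *Tap1* (0.20). In all, the 30 genes that missed the threshold ran from -1.28 to 0.49, 22 of them within 0.5 of 0, with adjusted p from 0.0799 to 0.997. Their 95% intervals reached from -2.24, for *Usp18*, to 1.40, for *Ddx58*.

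**Figure D3:**
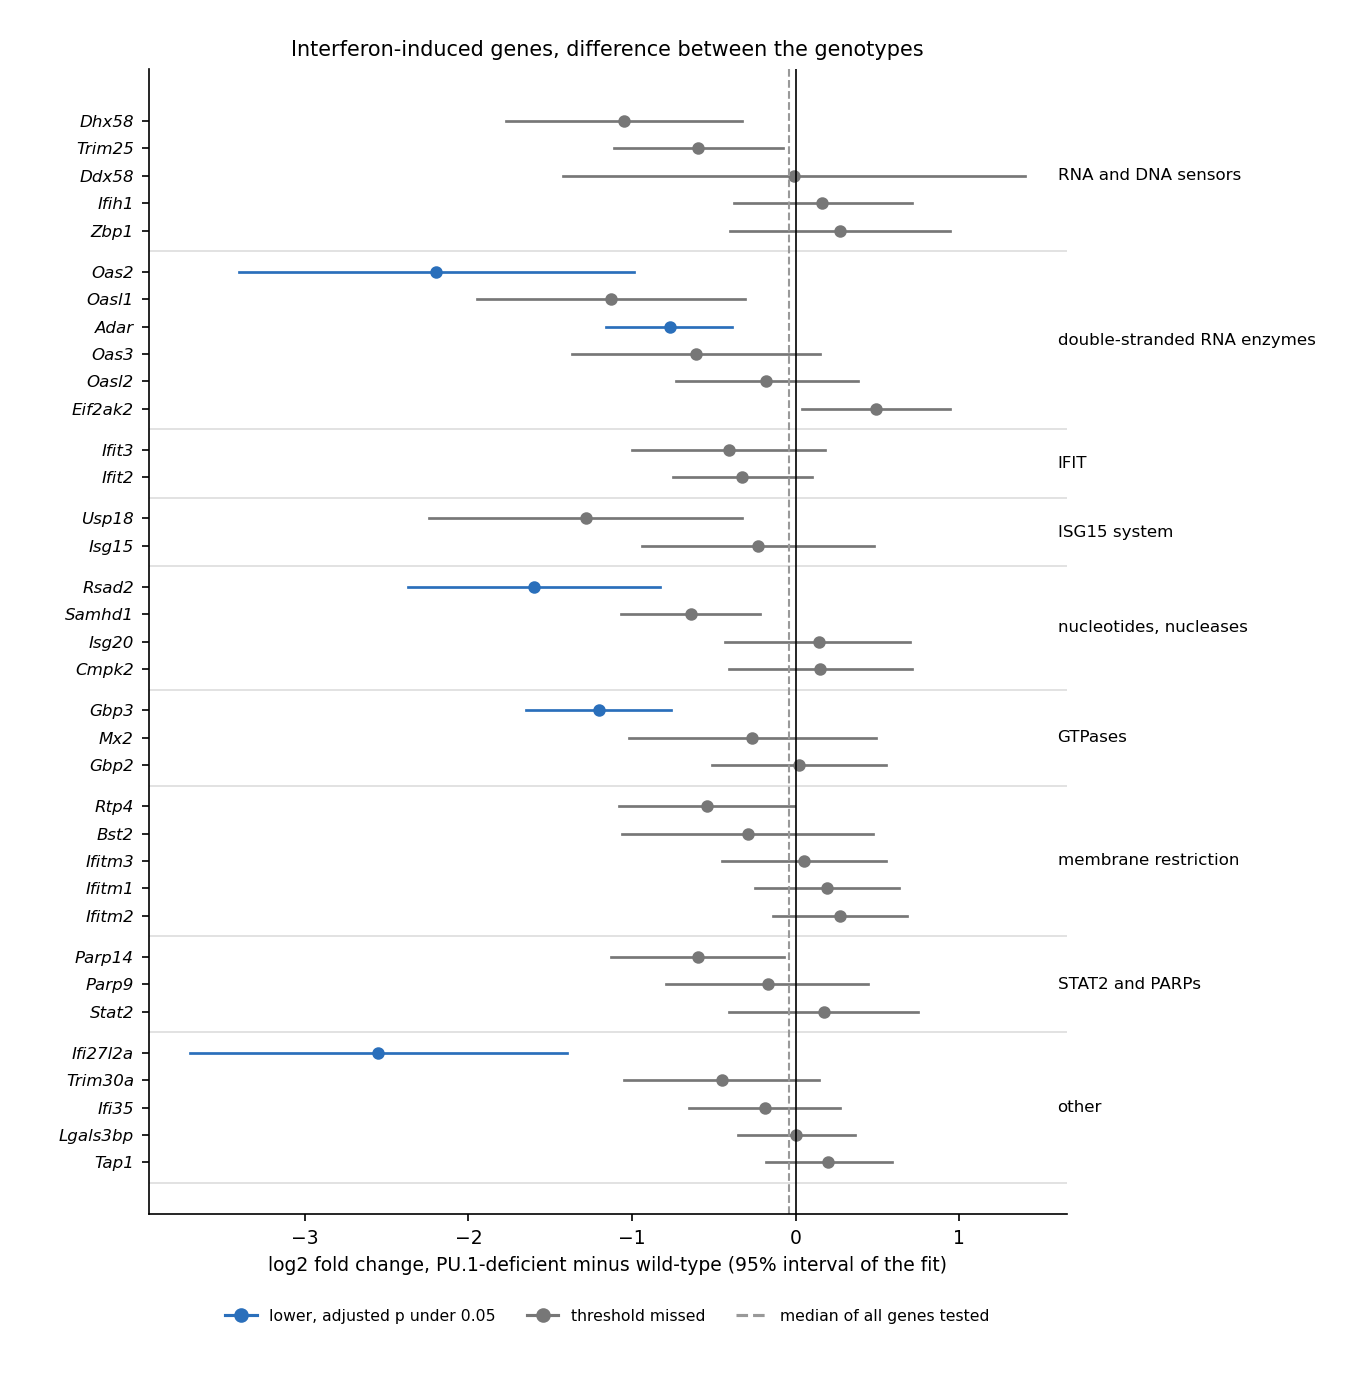
Log2 fold change (PU.1-deficient minus wild-type, 3 pools each) of the 35 interferon-induced genes, grouped by role; points are estimates and lines 95% intervals of the fit, blue for the 5 genes that fell and grey for the 30 that missed the threshold. The dashed line is the median of all genes tested, -0.04; most grey intervals cross 0.

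The 5 brightest of the genes showed no call. *Ifitm1*, *Ifitm2* and *Ifitm3* encode membrane proteins that stop virus particles from fusing with the cell. *Ifitm1* was at 13.33, 12.91 and 13.33 in PU.1-deficient pools and 12.91, 13.10 and 13.01 in wild-type pools (log2 fold change 0.19, 95% interval -0.25 to 0.63). *Ifitm2* was at 13.15, 12.80 and 13.14 against 12.72, 12.77 and 12.79 (0.27, interval -0.14 to 0.68). *Ifitm3* was at 12.86, 12.86 and 12.87 against 12.40, 13.02 and 13.03 (0.05, interval -0.45 to 0.55). The groups overlapped for *Ifitm1* and *Ifitm3*, and for *Ifitm2* the PU.1-deficient pools were above, with 12.80 against 12.79 at the closest pair. *Lgals3bp*, a secreted glycoprotein that binds galectins, was the steadiest, at 11.39, 11.43 and 11.44 against 11.38, 11.45 and 11.42 (0.00, interval -0.35 to 0.36). *Trim25*, the ubiquitin ligase that acts on RIG-I, was at 9.16, 9.60 and 9.31 against 9.61, 10.06 and 10.19 (-0.60, adjusted p = 0.168), and its second probe gave -0.25. The groups of *Trim25* nearly touched, at 9.60 and 9.61.

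The genes were uneven among the wild-type pools. Wild-type pool 3 was the highest of the 6 pools for 21 of the 35 genes, and wild-type pool 1 was the lowest wild-type pool for 29. PU.1-deficient pool 1 was the lowest of the 6 for 14. The median deviation of the 35 genes from their own means was -0.14, 0.26 and 0.44 log2 units in wild-type pools 1 to 3 and -0.32, -0.10 and -0.15 in PU.1-deficient pools 1 to 3. So wild-type pool 1 lay within the range of the PU.1-deficient pools by this measure. The median SD among wild-type pools was 0.32 for the 35 genes and 0.22 for all genes, and among PU.1-deficient pools 0.25 and 0.26. Wild-type pool 1 was also the highest wild-type pool for the neutrophil elastase gene *Elane* (13.43 against 10.98 and 11.57) and for *Ly6c1* (12.29 against 9.04 and 9.61). Among the neutrophil and monocyte markers, the same held for *Prtn3*, *Ctsg*, *Ngp*, *Lcn2*, *S100a8* and *Csf1r*. It did not hold for *Mpo*, *Camp*, *S100a9*, *Mmp9*, *Emr1*, *Ltf* and *Lyz2*. Of these, *Ltf* (8.69 against 8.82 and 9.01) and *Lyz2* were lowest in wild-type pool 1. The part of these marker differences and of array intensity in the spread of the interferon-induced genes was not tested.

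**Figure D4:**
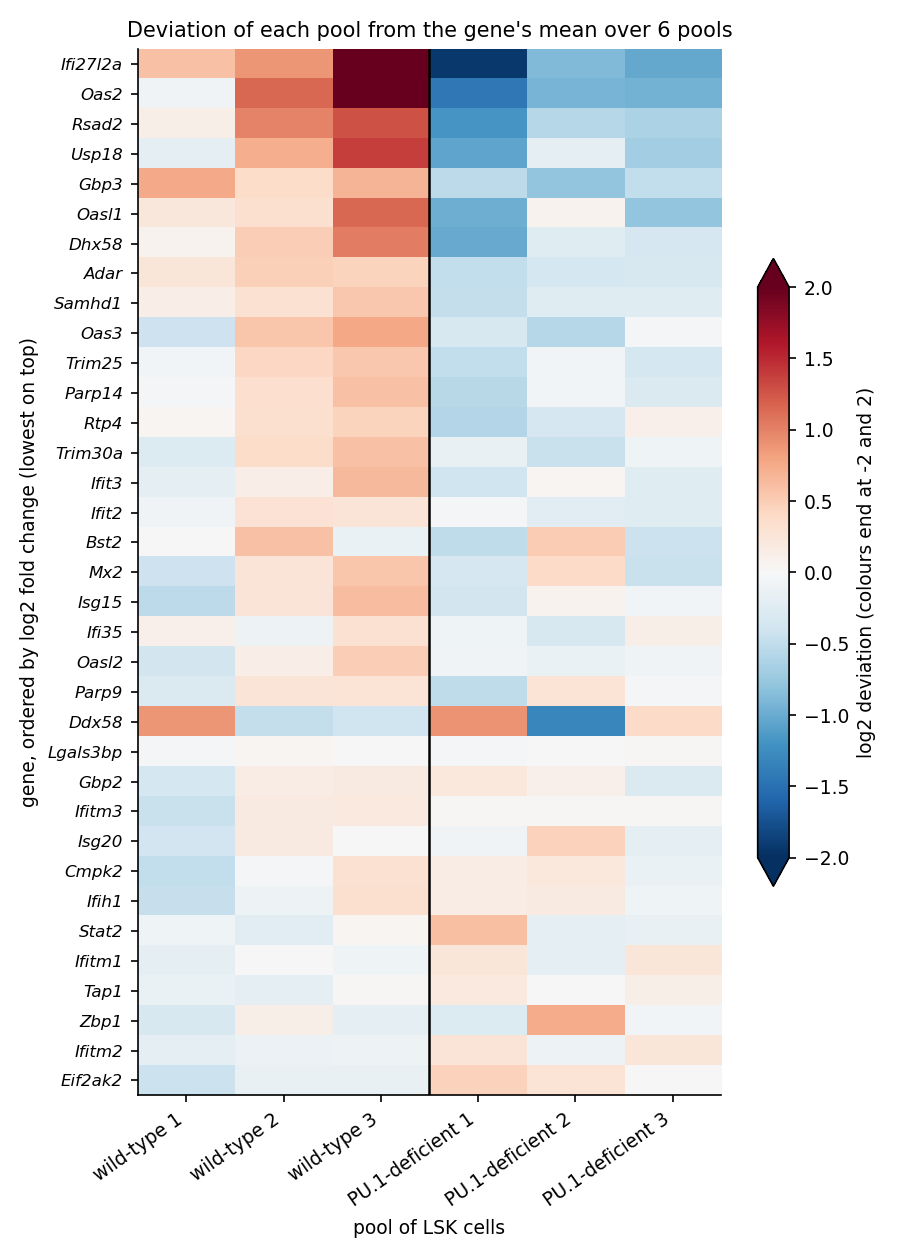
Deviation of each pool (columns, wild-type left of the line and PU.1-deficient right) from the mean of each of the 35 genes (rows, ordered by log2 fold change) in log2 units, red above and blue below the mean. Wild-type pool 3 is the reddest column, highest of 6 in 21 genes, and the last row, *Eif2ak2*, has its 3 PU.1-deficient pools above its 3 wild-type pools.

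The genes upstream of the interferon-induced genes were given from lists by role. Beside the counts of these small lists, 6.61% of all genes were higher and 5.59% lower at the same threshold. Of 18 listed interferon genes, 4 had a tested probe and 0 passed in either direction, with log2 fold changes from -0.16 to 0.27. Of 5 receptor subunits, 2 rose and 1 fell. *Ifngr1*, the ligand-binding chain of the type II interferon receptor, was at 11.35, 10.88 and 11.15 in PU.1-deficient pools and 9.91, 8.89 and 8.90 in wild-type pools, a log2 fold change of 1.89 (adjusted p = 0.0091). All PU.1-deficient pools lay above all wild-type pools. *Ifnlr1*, a chain of the type III interferon receptor, gave no detected signal in wild-type LSK cells. Its probe entered the test through the PU.1-deficient pools alone. Its rise was by at least 1.87-fold with the background correction used (adjusted p = 0.017). This bound does not hold with an offset of 50 (log2 fold change 0.68) or without background correction (0.48). The partner of *Ifnlr1*, *Il10rb*, fell (log2 fold change -0.97, adjusted p = 0.0165). *Ifnar2*, the type I receptor chain, was at 7.23, 7.62 and 7.44 in PU.1-deficient pools and 7.80, 8.83 and 8.94 in wild-type pools. That is a log2 fold change of -1.09 with its brightest probe (adjusted p = 0.0852) and again -1.09 with its second (adjusted p = 0.0423), so that 1 of its 3 probes passed. *Ifnar1* had no annotated probe.

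Of 12 genes of JAK, STAT and IRF signalling, 0 were higher and 2 were lower. Those were *Irf5* (log2 fold change -2.28, adjusted p = 0.0111), an inducer of inflammatory cytokines in myeloid cells, and *Irf8* (-1.34, adjusted p = 0.0207), a factor of monocyte and dendritic cell development that binds DNA together with PU.1. Of the response complex itself, *Irf9* was at 8.39, 7.71 and 8.22 in PU.1-deficient pools and 8.97, 8.65 and 9.10 in wild-type pools (-0.80, adjusted p = 0.0862), with no overlap. *Irf7*, which amplifies interferon production, gave -0.21 (adjusted p = 0.848). *Jak1* (0.29) and *Tyk2* (0.26) did not pass with their brightest probes. The second, dimmer probe of *Jak1* had the other sign, with no overlap between the groups, and did not pass either (-1.16, adjusted p = 0.0646). Among 12 genes of sensing adaptors and kinases, 1 was higher and 2 were lower. The kinase gene *Ikbke* rose (log2 fold change 1.17), whereas *Unc93b1*, the chaperone that carries Toll-like receptors to endosomes, had -1.22, and *Mb21d1*, which encodes the DNA sensor cGAS, had -0.95. A second probe of *Mb21d1* did not pass (-0.48). Among 10 negative regulators, *Socs3*, an inhibitor of cytokine receptor signalling, rose from 5.28, 6.75 and 5.94 to 7.97, 8.64 and 8.07 (log2 fold change 2.24, adjusted p = 0.0109), and the phosphatase gene *Ptpn6* fell (-0.82, adjusted p = 0.0299). Of these 10 genes past the threshold, only *Ikbke* passed without wild-type pool 3, and 4, 5 and 4 genes of the lists passed without PU.1-deficient pool 1, PU.1-deficient pool 3 and wild-type pool 2.

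**Figure D5:**
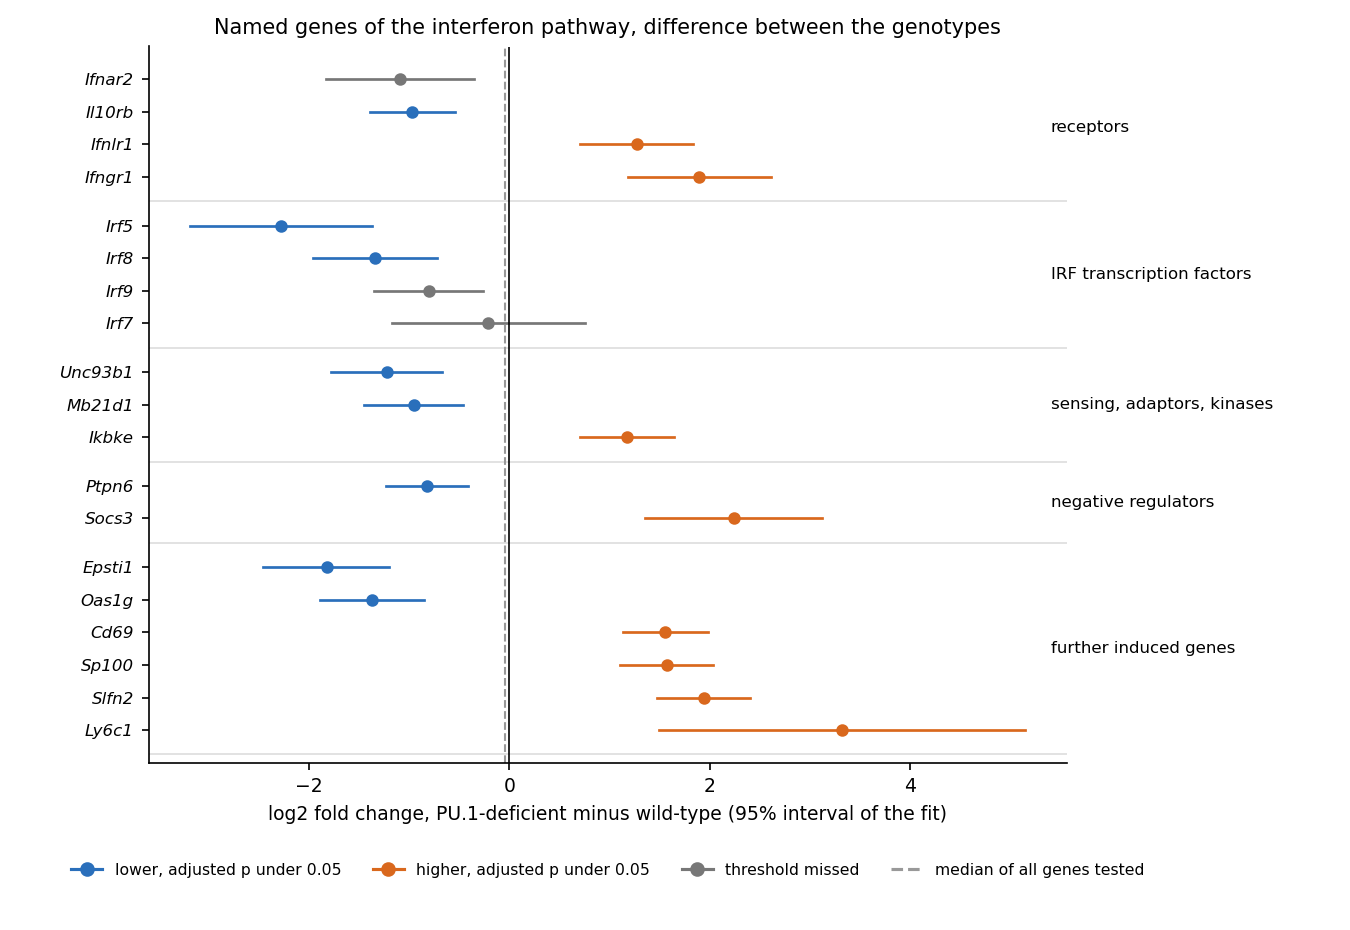
Log2 fold change (PU.1-deficient minus wild-type, 3 pools each) of the named genes of the interferon pathway, grouped by role; lines are 95% intervals of the fit, orange for genes that rose, blue for genes that fell, grey for those that missed the threshold. Receptors and further induced genes hold both directions, with *Ifngr1* at 1.89 and *Il10rb* at -0.97, and the 2 called IRF genes lie below 0.

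A further list of 81 genes induced by type I or type II interferon, 61 of them with a tested probe, had 5 genes higher (8.20%) and 4 lower (6.56%), with a median log2 fold change of -0.06. These shares were near those of all genes. *Epsti1*, named for its response to contact of epithelium with stroma, fell by 1.82 on the log2 scale (adjusted p = 0.00587), and its second probe gave -1.83. *Oas1g*, another oligoadenylate synthetase gene, was at 7.08, 7.37 and 7.56 in PU.1-deficient pools and 8.51, 8.58 and 9.04 in wild-type pools (-1.37, adjusted p = 0.00895). *Phf11d* (-0.97) also fell, as did *Ms4a6d*, by at least 1.14-fold, since its probe gave no detected signal without PU.1. Those that rose were *Ly6c1* (log2 fold change 3.32), *Slfn2* (1.94), which keeps lymphocytes quiescent, the nuclear body gene *Sp100* (1.57), the activation antigen gene *Cd69* (1.55) and *Znfx1* (0.92). *Ly6c1* is also a marker of monocytes, and it missed the threshold in 5 of the 6 fits that left out 1 pool. The second probe of *Cd69* gave -0.10 and did not pass. The falls numbered 2 without PU.1-deficient pool 1 or 3 or without wild-type pool 2 or 3, and the rises 4 without wild-type pool 1 and 3 without any other pool.

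Markers of other cell types and of cell handling differed between the genotypes beside these genes. Of 11 neutrophil genes with a probe, 8 rose and 0 fell without PU.1, and their summed linear level was 155652 to 170389 against 33536 to 60678 in wild-type pools. All 4 erythroid genes (199 to 496 against 2239 to 6758) and all 5 megakaryocyte genes (795 to 1354 against 5874 to 6294) were lower. Of 4 plasmacytoid dendritic cell genes, which mark the main producers of type I interferon, 1 was lower, *Irf8*. The groups of *Tcf4*, *Cox6a2* and *Siglech* overlapped. The summed level of the 4 was 1903 to 2631 against 2956 to 4104. Most of that sum came from the brighter probes, those of *Tcf4* (log2 fold change -0.46, adjusted p = 0.358) and *Irf8*. *Siglech*, the most specific of the 4 genes, was at 7.31 to 8.15 in PU.1-deficient pools and 7.38 to 8.54 in wild-type pools. Of 4 monocyte and macrophage genes, 2 were higher and 2 lower. Of 11 genes of sort handling and stress, 2 were lower, *Egr1* (log2 fold change -2.39) and *Dusp1* (-1.20), and 9 missed the threshold. The log2 fold change was negative for 8 of the 11 and positive for 3. The summed level of the list was 2987 to 3805 in PU.1-deficient and 4625 to 5876 in wild-type pools, with no overlap. Its largest part came from the brightest probe, that of *Hsp90aa1*, whose groups overlapped (-0.31, adjusted p = 0.742). Each marker counted here was detected in at least 1 pool, and the part of these cells and of handling in the levels of the interferon-induced genes was not tested.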

How the data were processed

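LSK cells from 3 pools of wild-type and 3 pools of PU.1-deficient mice were profiled on Illumina MouseWG-6 arrays. The authors deposited raw intensities with a detection p-value, kept here as a score, for each probe. In that table the headings of the intensity and detection columns are exchanged within each pair, as their values show. The authors also deposited log2 values, made with the neqc function of *limma*. Here the intensities were normalized again with neqc (*limma* 3.58.1 in R 4.3.3, background inferred from the detection p-values, offset 16, quantile normalization), which differed from the deposited log2 values by at most 0.0255. The 22119 probes with a detection p-value under 0.05 on at least 1 array were fitted with the moderated statistics of *limma* on genotype, with Benjamini-Hochberg adjustment over all of them and a threshold of 0.05. No 2 arrays were identical.

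The probe with the highest mean over the 6 pools in the deposited log2 values stood for a gene, named from GEO's platform annotation, which can be old. Normalized log2 levels of different probes are not comparable. Every interferon-induced gene is accounted for. Those past the threshold, with a log2 fold change of at least 1 in size, or among the 5 brightest have all pool values. Of the other lists, genes past the threshold were named, up to the 6 largest a list, with *Ifnar1*, *Ifnar2*, *Irf7*, *Irf9* and *Ly6a*; genes outside this rule were chosen after their values were seen. The genes and lists were chosen with earlier results of these data known. A probe undetected in all pools of a genotype gives only a bound: the mean of the other genotype against, per array, the higher of the lowest detected signal and the probe's own signal. Such a bound is for the background correction used, and such a probe entered the test through the other genotype alone. The method was tested on simulated data. The number of arrays limits the precision, and slide and scan were not given in the sources used here.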

Additional observations from a re-analysis of the deposited data

How the results depend on the processing

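The 16 alternatives covered background correction, offset, scaling between arrays, the filter on dim probes, array weights, the deposited log2 values, the second brightest probe, the replicate number as a block, and leaving out each pool. The median of the interferon-induced genes stayed below 0 in each of them. The count of genes that fell was 2 with no filter on dim probes, where 45281 probes were tested and 848 were lower. With array weights 7309 of the 22119 probes tested were called, 3189 higher and 4120 lower. Of the interferon-induced genes, 16 were then lower and 1 higher. In the further list 11 genes were higher and 17 lower, and 21 pathway genes passed. With scaling to equal medians, which moved the median of all probes from -0.05 to -0.21, that of the interferon-induced genes was -0.52, and 526 probes were higher and 893 lower, against 1081 and 864. There, 7 interferon-induced genes were lower, with *Dhx58*, *Oasl1* and *Usp18* gained and *Adar* lost. Leaving out 1 pool gave 904 to 2091 called probes, 1 to 8 interferon-induced genes lower, 0 higher, a median from -0.44 to -0.18, 3 to 4 further genes higher and 2 to 4 lower, and 1 to 11 pathway genes. The cause of these shifts was not tested.

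With the replicate block 3277 of the 22119 probes were called, 1681 of them lower, and 9 interferon-induced genes were lower. Same-numbered pools deviated together in pairs 1 and 2 (correlation 0.72 and 0.61 across the probes tested) but not in pair 3 (-0.15). PU.1-deficient pool 2 also deviated together with wild-type pool 3, of another number (0.52). The labels do not say that a number marks a shared batch, so the numbers were not taken as pairs. Of 862 values of 54 named genes over the alternatives, 768 kept their direction and side of the threshold, 61 lost and 32 gained a call. The second brightest probe of *Cd69* turned its sign (-0.10). *Oas2* and *Oas3*, undetected in all PU.1-deficient pools, have only a bound there.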
